A study of Mus musculus with 59 samples.

Results

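CTCF binding sites of wild-type mouse embryonic stem cells (ESCs) were compared with those of ESCs that lack Smarca5. The wild-type list held 83173 peaks and the knockout list 89567, together 172740 of the 676405 peaks in the 13 lists of the series used here. A peak was called shared when it overlapped a peak of the other list by at least 1 bp. There were 80776 shared peaks, 2397 wild-type-only peaks and 8791 knockout-only peaks. Both groups were E14Tg2a cells, an established line of mouse ESCs, grown in serum and LIF with a MEK inhibitor (PD0325901) and a GSK3 inhibitor (CH99021), and CTCF was precipitated from both with the same antibody. The knockout was made in this line with a Cas9 nickase and paired guides against an early exon of Smarca5, and how many clones were used is not stated in the labels. Each group had 1 ChIP sample and 1 list, so no difference between the lists has a replicate check, and no test was made. Ranges in parentheses are 95% Wilson intervals for counting error alone, and library depth is unknown.

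CTCF is a zinc-finger protein that binds a long, conserved DNA motif, halts cohesin at the bases of chromatin loops and separates enhancers from promoters. SMARCA5 (SNF2H) is the ATPase of most ISWI remodelling complexes. It slides nucleosomes into regular arrays, and in ESCs it is known for positioning nucleosomes around bound CTCF. Peak lists show neither mRNA nor protein, so the loss of Smarca5 could not be checked in them. Pluripotency and lineage genes can carry CTCF whether or not they are expressed, so the lists do not check the cell type either. The Smarca5 gene itself, on chromosome 8, had 2 CTCF peaks within 10 kb in wild type and the same 2 in the knockout, and Ctcf had 4 in each.

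Sequences at the peaks were available for promoters only, as RefSeq windows (GRCm38.p6) of 250 bases before to 50 after a start site. The conserved core of the CTCF motif was searched on both strands as CCNNNAGNNGGC, or GCCNNCTNNNGG on the opposite strand, where N is any base. The sequences below come from promoters that lay wholly inside a peak and held this core within 50 bp of the peak's centre. They show what a core-containing site looked like in each class, were chosen after the peaks were known, and are written in the direction of the gene with the core in capitals. Examples from shared peaks are the promoters of Dab2, an endocytic adaptor gene, Pds5b, a cohesin regulator, and Smarca5.
Dab2, chr15:6386589-6386648, plus strand: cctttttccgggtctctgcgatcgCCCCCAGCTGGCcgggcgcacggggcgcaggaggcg
Pds5b, chr5:150673669-150673728, plus strand: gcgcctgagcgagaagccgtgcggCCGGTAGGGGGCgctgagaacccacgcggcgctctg
Smarca5, chr8:80739571-80739630, minus strand: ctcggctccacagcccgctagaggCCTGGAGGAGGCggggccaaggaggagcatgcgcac
Promoters inside wild-type-only peaks had the core upstream of the start site in 6 cases, and these 4 met the distance limit. Rarres1 is a retinoic acid responsive gene and Snx25 a sorting nexin.
Gm35874, chr8:123652785-123652844, minus strand: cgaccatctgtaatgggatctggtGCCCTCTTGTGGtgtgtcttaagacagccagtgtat
Gm38780, chr6:29688834-29688893, minus strand: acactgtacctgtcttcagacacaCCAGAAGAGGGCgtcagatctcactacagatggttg
Rarres1, chr3:67515631-67515690, minus strand: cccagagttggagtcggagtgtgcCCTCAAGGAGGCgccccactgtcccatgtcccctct
Snx25, chr8:46151787-46151846, minus strand: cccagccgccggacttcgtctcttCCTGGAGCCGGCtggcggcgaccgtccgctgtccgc
Promoters inside knockout-only peaks had it in 8 cases, and these 5 met the limit. Mmp14 codes for a membrane-bound matrix metalloproteinase and Arhgef2 for a guanine nucleotide exchange factor of RhoA.
Arhgef2, chr3:88621366-88621425, plus strand: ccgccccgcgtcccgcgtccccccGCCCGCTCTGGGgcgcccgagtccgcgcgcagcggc
Gm33616, chr9:106418403-106418462, minus strand: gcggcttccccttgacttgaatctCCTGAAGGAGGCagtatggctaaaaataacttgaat
Gm36570, chrX:59179175-59179234, plus strand: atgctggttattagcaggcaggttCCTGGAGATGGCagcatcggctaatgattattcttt
Mmp14, chr14:54431441-54431500, plus strand: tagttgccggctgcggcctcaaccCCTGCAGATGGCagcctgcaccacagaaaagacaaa
Sgsm1, chr5:113310863-113310922, minus strand: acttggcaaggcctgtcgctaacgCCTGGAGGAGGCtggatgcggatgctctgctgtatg
The core lay 5 bp from the peak's centre in Mmp14 and in Gm38780, 2 bp in Pds5b and 3 bp in Dab2. The peaks at Dab2 and Pds5b were in all 5 control lists of reprogramming cells described below, the peak at Gm35874 in 4, the peak at Sgsm1 in 1, and the other peaks shown here in none.

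The core was most frequent at shared peaks. Of 4824 promoter windows that overlapped a shared peak, 1094 held it (22.7%, 21.5 to 23.9). The shares were 15.1% of 166 windows at wild-type-only peaks (10.4 to 21.3) and 11.8% of 621 at knockout-only peaks (9.45 to 14.5). Among 27240 windows without a peak of either list it was 6.01%, and among all 32851 windows 8.61%. Windows without a peak had a lower GC content, with a median of 51.0% against 62.7% at shared, 62.7% at knockout-only and 64.8% at wild-type-only peaks. Within windows of 55 to 70% GC, a range chosen after the data were seen, the core was in 9.33% of 8004 windows without a peak (8.71 to 9.99). In that range it was in 23.8% of 2654 windows at shared peaks (22.2 to 25.5), in 12.7% of 346 at knockout-only peaks (9.61 to 16.6) and in 11.9% of 101 at wild-type-only peaks (6.93 to 19.6). The intervals of both smaller classes thus overlapped that of the peak-free windows at this GC content, and that of shared peaks did not. Overlap of intervals is no test of a difference, and the differences were not tested.

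Where the core was present, it lay closest to the centre of shared peaks. The median distance was 45 bp over 1094 windows at shared peaks, 78 bp over 25 at wild-type-only peaks and 110 bp over 73 at knockout-only peaks. It lay within 50 bp of the centre in 51.6% (48.6 to 54.5), 36.0% (20.2 to 55.5) and 26.0% (17.3 to 37.1) of these windows. With 1 mismatch allowed, the core was in 87.1%, 86.7% and 83.6% of the windows of these classes and in 60.5% of those without a peak, so the looser pattern separated the classes by 3.5 percentage points at most. Within windows of 55 to 70% GC, the looser pattern was in 80.9% of those without a peak (80.0 to 81.8). In that range it was in 90.2% at shared (89.0 to 91.3), 86.1% at wild-type-only (78.1 to 91.6) and 87.6% at knockout-only peaks (83.7 to 90.6).

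The knockout list held nearly every wild-type site and added others. It retained 97.1% of the wild-type peaks (97.0 to 97.2) and lacked 2.88%, and 9.81% of the knockout peaks (9.62 to 10.0) were absent from wild type, which was 3.67 knockout-only peaks for each wild-type-only peak. All 80776 shared peaks had identical start and end positions in both lists. The scores of all peaks are 0 and all widths 400 bp, so a weaker peak could not be told from a strong one, nor a site below the caller's limit from an unbound one.

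Knockout-only sites were rarely seen as CTCF sites elsewhere in the series. The comparison used the control lists of reprogramming fibroblasts at day 0, at day 10 after OSKM (Oct4, Sox2, Klf4 and c-Myc), in sorted SSEA1- Thy1- and SSEA1+ intermediates, and in day 12 Oct4-GFP+ cells. At least 1 of these 5 lists held 74.0% of shared peaks (73.7 to 74.3), 55.2% of wild-type-only peaks (53.2 to 57.2) and 8.19% of knockout-only peaks (7.64 to 8.78). In the day 12 list, from the cells closest to ESCs, these shares were 60.2%, 38.8% and 2.76%. In the day 0 list they were 34.1%, 4.63% and 0.899%.

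**Figure D1:**
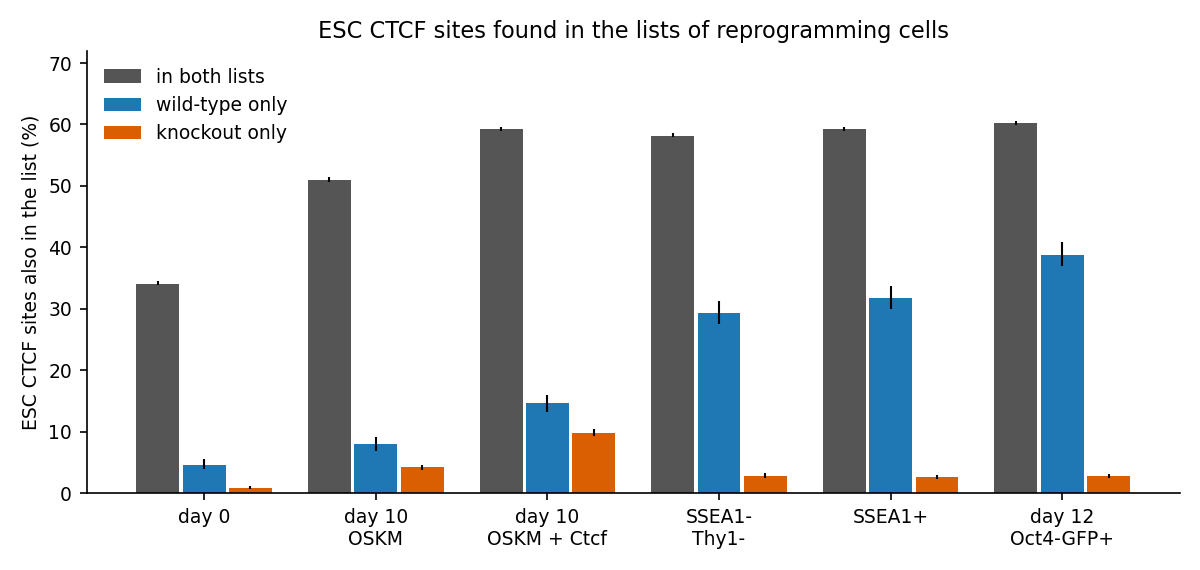
Share of ESC CTCF sites (y axis, %) found by at least 1 bp in each list of reprogramming cells (x axis), for shared, wild-type-only and knockout-only peaks, with Wilson 95% intervals. Knockout-only bars are lowest in every list, from 0.899% on day 0 to 9.86% on day 10 with OSKM and Ctcf, and wild-type-only bars are high in the 3 lists of sorted and day 12 cells only.

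The place of wild-type-only sites depended on which lists were asked. In the SSEA1- Thy1-, SSEA1+ and day 12 lists they were found in 29.3%, 31.8% and 38.8% of cases, about an order of magnitude more often than knockout-only sites, at 2.87%, 2.66% and 2.76%. In the day 10 OSKM list the shares were 7.93% (6.91 to 9.08) and 4.22% (3.82 to 4.66). In the day 10 list with OSKM and added Ctcf they were 14.6% (13.2 to 16.0) and 9.86% (9.26 to 10.5). Wild-type-only sites also had exactly the same position as the overlapping peak more often in the lists of sorted and day 12 cells. Identical starts made up 22.5%, 24.6% and 27.7% of those overlaps, against 4.24%, 4.43% and 4.79% for shared peaks, and 1.58% in the day 10 OSKM list. How positions were set in each list is not given in the sources used here, and the part of this in the overlap was not tested. In the day 0 and day 10 control lists alone, 9.85% of wild-type-only sites (8.72 to 11.1) and 4.73% of knockout-only sites (4.31 to 5.20) were found, against 52.9% of shared sites.

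The more control lists held a site, the less often it differed between the ESC lists. Of the 24874 knockout peaks found in all 5 control lists, 17 were absent from wild type (0.0683%), and of the 24911 such wild-type peaks 99.8% were kept. Of the 29049 knockout peaks found in none, 8071 were absent from wild type (27.8%, 27.3 to 28.3). Between these ends the knockout-only share fell at every step, to 4.42% of sites in 1 list, 1.93% in 2, 0.901% in 3 and 0.355% in 4. The kept share of wild-type peaks did not follow the same steps, with 95.1% (94.8 to 95.4) at sites in no control list and 94.5% (94.1 to 94.9) at sites in 1.

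**Figure D2:**
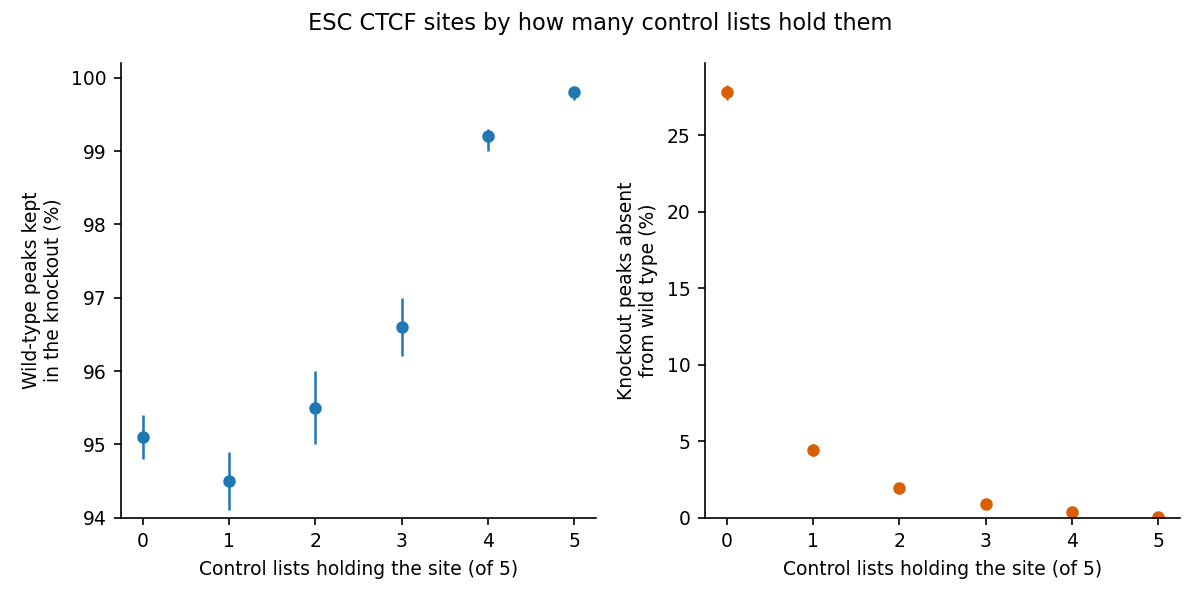
Wild-type ESC peaks kept in the knockout (left, %, axis not from 0) and knockout peaks absent from wild type (right, %), by the number of control lists that hold the site (x axis, 0 to 5), with Wilson 95% intervals. The right panel drops from 27.8% to 0.0683%, and the left panel is lowest, at 94.5%, for sites in 1 list.

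SMARCA5 occupancy, mapped in ESCs through an added biotin-tagged protein, was less frequent at both smaller classes, at 33.1% of wild-type-only and 35.3% of knockout-only peaks against 49.1% of shared peaks. All these overlaps had identical positions, which the 3 ESC lists share, and the part of this in the SMARCA5 shares was not tested. Splitting each class by SMARCA5 showed different patterns in the other lists. Shared sites with SMARCA5 were in at least 1 control list in 81.4% of 39624 cases and those without in 66.9% of 41152. For knockout-only sites the shares were 10.9% of 3107 (9.86 to 12.1) with SMARCA5 and 6.70% of 5684 (6.08 to 7.38) without. For wild-type-only sites the order was the reverse within overlapping intervals, at 52.5% of 794 (49.0 to 56.0) and 56.6% of 1603 (54.1 to 59.0).

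Sites that differed between day 10 lists with and without an shRNA against Smarca5 were also less stable between the ESC lists. These day 10 cells carried OSKM and added Ctcf. The shRNA group had 1 ChIP sample and the group without it 2, and the part of this in the day 10 differences was not tested. Of wild-type ESC peaks at day 10 sites kept under the shRNA, 99.3% of 47835 were kept in knockout ESCs. At day 10 sites absent under the shRNA the share was 90.8% of 358 (87.3 to 93.4), and at sites present only with the shRNA 88.6% of 114 (81.5 to 93.2). The knockout-only share of knockout peaks followed the same split, with 1.67% of 48324 at kept sites, 16.0% of 387 (12.7 to 20.0) at absent sites and 13.7% of 117 (8.60 to 21.1) at sites present only with the shRNA. For an shRNA against Ctcf in day 12 cells, the ESC kept share was 98.8% of 29623 at kept sites. It was 97.1% of 19971 at absent sites and 93.9% of 3415 at sites present only with that shRNA. Knockout-only shares in the same order were 0.340%, 0.732% and 2.88%. In SSEA1- Thy1- cells the kept shares were 98.9%, 96.6% and 94.1%, and the knockout-only shares 0.318%, 1.65% and 2.21%. In SSEA1+ cells they were 98.8%, 96.3% and 94.2%, and 0.279%, 1.58% and 2.26%.

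The knockout-only share differed between chromosomes. Over the 19 autosomes it had a lowest value of 8.64%, a median of 9.64% and a highest value of 13.8%, on chromosome 14 (477 of 3452 peaks, 12.7 to 15.0). Chromosomes 8, 4 and 1 followed at 11.3%, 11.2% and 11.2%, and chromosome 13 at 10.4%. The X chromosome was far below all autosomes, with 92 of 2136 peaks (4.31%, 3.53 to 5.25), and its list grew by 1.38% where the median autosome grew by 7.24%, while that of chromosome 14 went from 3028 to 3452 peaks. Both lists also held peaks on the Y, 30 in wild type and 22 in the knockout. The copy number of the X was not measured, and its part in the low X share was not tested. The wild-type-only share ran from 1.75% on chromosome 14 (53 of 3028, 1.34 to 2.28) to 3.40% on chromosome 7, with a median of 2.90%, and was 2.99% on the X. Chromosome 14 thus had the highest share of added and the lowest share of missing sites among the autosomes. As a comparison within the series, sites added on day 10 by Ctcf overexpression made up 15.3% to 19.3% of the list on the autosomes and 15.0% on the X.

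**Figure D3:**
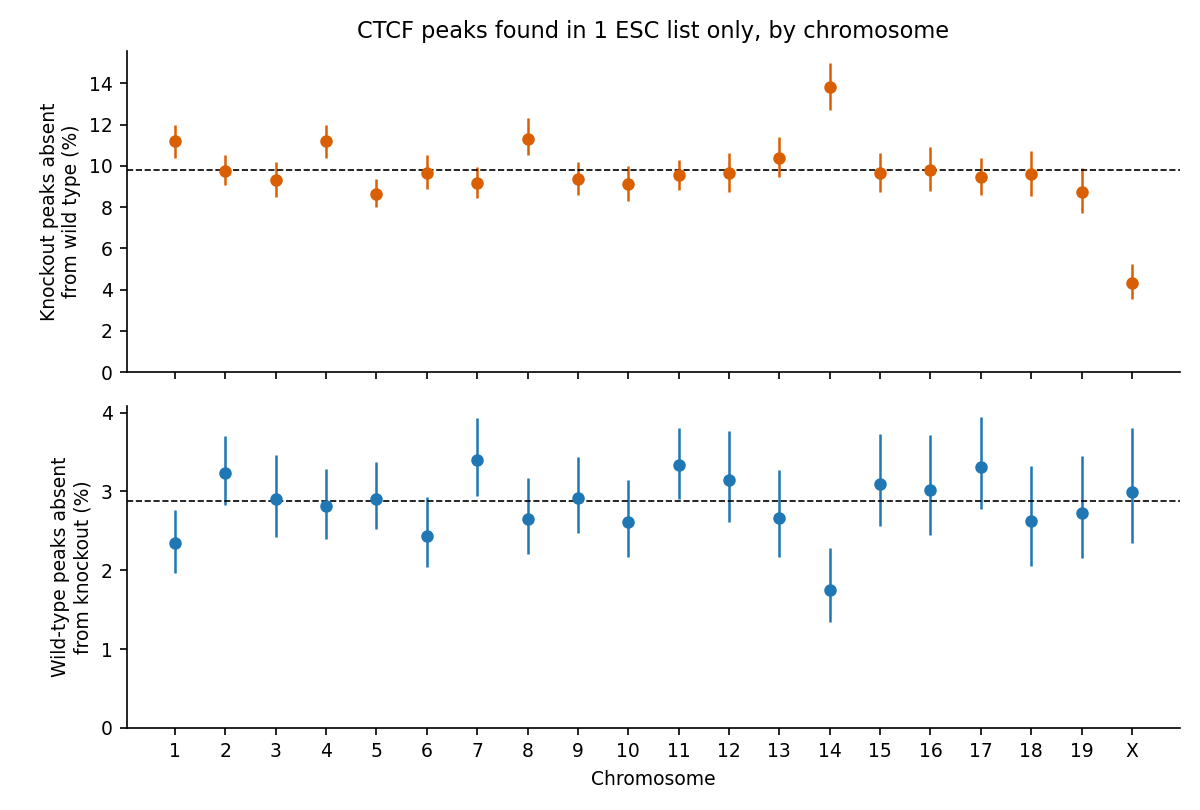
Knockout-only share of knockout peaks (top, %) and wild-type-only share of wild-type peaks (bottom, %) for chromosomes 1 to 19 and X, with Wilson 95% intervals and the value over all chromosomes as a dashed line. Chromosome 14 is highest above (13.8%) and lowest below (1.75%), and the X is lowest above (4.31%).

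High shares lay in 1 stretch of chromosome 4 and along the distal part of chromosome 14. In bins of 10 Mb with at least 100 knockout peaks, 260 in number, the knockout-only share ran from 2.65% to 20.4% with a median of 9.51%. Of the 20 highest bins, 6 lay on chromosome 14 and 5 on chromosome 4. On chromosome 4 the share was 5.42% (3.72 to 7.82) in the first 30 Mb, 16.6% (15.0 to 18.4) between 30 and 90 Mb, and 9.41% (8.52 to 10.4) beyond. The wild-type-only share in these stretches was 2.16%, 1.67% and 3.36%. On chromosome 14 knockout-only peaks were 190 of 1721 up to 60 Mb (interval 9.65 to 12.6%) and 16.6% (14.9 to 18.4) beyond, and the wild-type-only share 2.36% and 1.10%. These boundaries were set after the values were seen. Across the 260 bins the knockout-only and wild-type-only shares had a Spearman rho of -0.215 and a Pearson r of -0.239, given as a description since neighbouring bins and both lists share libraries. The 477 knockout-only sites of chromosome 14 resembled those of the other autosomes in holding SMARCA5, at 35.6% in each, and were in at least 1 control list in 6.92% of cases (4.97 to 9.56) against 8.27% (7.70 to 8.89).

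**Figure D4:**
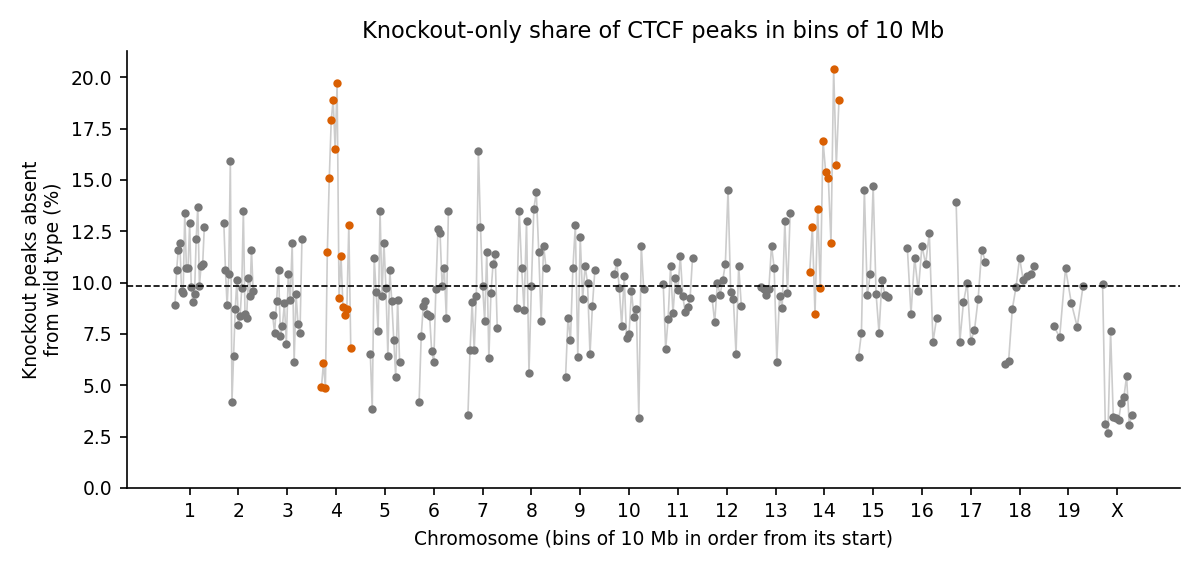
Knockout-only share of knockout peaks (y axis, %) in the 260 bins of 10 Mb with at least 100 knockout peaks, in order along each chromosome (x axis), with chromosomes 4 and 14 coloured and the value over all peaks dashed. Chromosome 4 rises from 4.88% to 19.7% and falls again, chromosome 14 reaches 20.4%, and 11 of the 12 bins of the X lie under 8%.

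Both smaller classes lay closer to other CTCF peaks than shared sites did. The median distance between starts to the nearest peak of the same list was 7540.0 bp for shared, 3955 bp for wild-type-only and 5898 bp for knockout-only peaks. A shared peak lay within 5 kb of 59.8% of wild-type-only (57.8 to 61.8) and 40.8% of knockout-only peaks (39.8 to 41.9), against 30.3% of shared peaks. Most sites of these classes stood alone between sites of another class, 2252 of the wild-type-only and 7143 of the knockout-only peaks. The longest run of knockout-only sites held 5 peaks in 125417 bp at Chchd6, a gene for a mitochondrial inner membrane protein (chr6:89380694-89506110). The next held 4 peaks each, at Zbtb38, a methyl-DNA binding protein gene, at Ptpn23 and Scap, at Hic1 and Smg6, and at a cluster of Tln1, Creb3, Gba2, Msmp and Rgp1 on chromosome 4. The longest wild-type-only runs lay in multicopy regions, 8 peaks on the Y chromosome and 4 on the X between 25769027 and 26619608 at Slx and the predicted genes Gm2012, Gm2030, Gm2036 and Gm5168, where reads from near-identical copies make positions uncertain. On the Y, 10 of 30 wild-type peaks were absent from the knockout.

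Wild-type-only sites lay nearer to start sites and knockout-only sites more often inside genes. The median distance to a RefSeq start site was 13789 bp for wild-type-only, 19434 bp for shared and 20691 bp for knockout-only peaks, and 41.9% (39.9 to 43.9), 33.6% and 33.3% (32.3 to 34.3) lay within 10 kb of one. Peaks on chromosome 18 were not used for start-site distances or promoters. Within 1 kb the shares were 10.3% (9.13 to 11.6), 8.83% and 10.4% (9.80 to 11.1). Spans of protein-coding genes held 61.2% of knockout-only peaks (60.2 to 62.2), against 55.4% of shared and 55.7% of wild-type-only peaks (53.7 to 57.7). The promoters of 570 genes overlapped a knockout-only peak, those of 151 genes a wild-type-only peak and those of 4424 genes a shared peak. Over all peaks, 9.81% of knockout peaks were knockout-only and 2.88% of wild-type peaks wild-type-only. These promoter counts are given as a description.

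Few genes lost all their CTCF peaks. Of 17874 protein-coding genes with a wild-type peak within 10 kb, 59 kept none (0.330%), and 53 of these had no knockout peak at all. Of 4013 genes without a wild-type peak, 211 had one in the knockout (5.26%). Olfr522, an olfactory receptor gene, was the gene with the most wild-type peaks and none kept, with 2 peaks that lay 4836 and 8003 bp outside its span. The others named by the same rule had 1 each, and among them were Dkc1, the dyskerin gene, Cenpq, a kinetochore gene, Cep170, a centrosome gene, and Bend5, Clec4a3 and Fam210b. Fzd1, a Wnt receptor gene, Dnajb7 and Elovl5, a fatty acid elongase gene, kept none but had 1, 1 and 3 peaks at other positions in the knockout. Tab2, an adaptor of NF-kB signalling, Uspl1 and Rgp1 each went from 0 to 3 peaks, and Dnajc2, Cyp4a31, Fbxw17, Gucd1, Gm4606 and Gm6749 from 0 to 2.

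The genes with the most wild-type-only peaks were Msi1, a neural RNA-binding protein gene, with 4 of its 14 wild-type peaks absent from the knockout, and Mtus2, a microtubule-associated protein gene, with 4 of 42. Cbfb, the partner subunit of RUNX factors, lacked 3 of 7, and Bglap and Bglap2, the neighbouring osteocalcin genes, lacked the same 3 of 4. Fance, Atxn3, Clstn1, Tmem184b and Epb41l3 lacked 3 each. The genes with the most knockout-only peaks were mostly long. Wwox, an oxidoreductase gene at a fragile site, had 33 wild-type and 42 knockout peaks, all 33 kept and 9 added, of which 2 held SMARCA5 and none was in a control list. Kif13b, a kinesin gene on chromosome 14, went from 7 to 15 peaks with all 7 kept. Nfib, a nuclear factor I gene within the high stretch of chromosome 4, went from 6 to 13 with all 6 kept. Bcas3, Tenm3 and Nav2 had 8 knockout-only peaks each, of 30, 34 and 45 knockout peaks. Zbtb20, Gse1, Camta1 and Cdh13 had 7, of 21, 47, 59 and 63. This ranking is by count and not by share, and over all knockout peaks the knockout-only share was 9.81%.

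The gene lists were read against all protein-coding genes, near which 96.8% of wild-type peaks were kept and 9.76% of knockout peaks were absent from wild type, counting a peak once per gene. The interval of the kept share included the first value for 17 of the 20 lists, and that of the knockout-only share the second for 17. The exceptions were the long neuronal genes and clustered protocadherins (kept more), the cell cycle and p53 genes (kept less), the ISWI remodeller genes (added more), and the clustered protocadherins and antigen presentation genes (added less). Protocadherin entries, in which peaks recur between overlapping genes, gave 99.8% of 544 kept and 2.16% of 555 added. Counted once, these were 98.7% of 78 and 4.94% of 81 peaks. No interval was made for them, so the protocadherin exceptions hold for repeated entries only. Over all 21887 protein-coding genes, 5680 had a knockout-only peak within 10 kb. Among the ISWI remodeller genes, 15 of 89 knockout peaks were absent from wild type (16.9%, 10.5 to 26.0), near 8 of 12 genes. With gene spans widened by 50 kb it was 19 of 171 (11.1%). Bptf, the large subunit of NURF, went from 14 to 19 peaks with all 14 kept, and its 5 knockout-only peaks lay inside the gene, held no SMARCA5 and were in no control list. Without Bptf the list, at 10 kb, had 10 of 70 (14.3%). Pole3, a histone-fold subunit of CHRAC, went from 1 to 3, one of the added peaks lying over its promoter, and Rsf1 from 11 to 12 with 10 shared. Rbbp4 went from 3 to 4 with 2 shared, Chrac1 from 1 to 2, Baz1b from 7 to 8, Baz2a from 4 to 5 and Cecr2 from 11 to 12. Baz2b, a subunit of another ISWI complex, fell in number from 16 to 15. Smarca1, the gene for the second ISWI ATPase SNF2L, had 2 peaks in each list and Baz1a 5 in each.

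Genes of CTCF itself and of cohesin, the ring complex that extrudes loops, kept 79 of 82 peaks (96.3%, 89.8 to 98.7), and 4 of 83 knockout peaks were absent from wild type (4.82%, 1.89 to 11.7), both intervals including the values over all genes. With spans widened by 50 kb the latter share was 15 of 166 (9.04%). Stag2 kept 1 of 2, the missing peak lying inside the gene and being in 2 control lists, Mau2, a cohesin loader subunit, kept 3 of 4 and Pds5b 7 of 8. One peak was added at each of Nipbl (9 to 10), Pds5a (8 to 9), Pds5b and Esco2 (1 to 2). Ctcfl (6), Smc1a (3), Smc1b (4), Smc3 (5), Rad21 (2), Stag1 (12), Wapl (4), Esco1 (5) and Cdca5 (5) had the same peaks in both lists. Among 20 genes of other remodelling complexes, 135 of 143 peaks were kept (94.4%, 89.3 to 97.1), and 17 of 152 knockout peaks, near 12 of the genes, were absent from wild type (11.2%, 7.10 to 17.2). Both intervals included the values over all genes, and 5680 of all 21887 protein-coding genes had a knockout-only peak. Ep400, an ATPase of the TIP60 complex, went from 7 to 5, and Smarcc1, a core BAF subunit, kept 11 of 13.

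Imprinted genes and the X-inactivation centre are both known for allele-specific CTCF binding, which these peak lists cannot show. Imprinted genes kept 82 of 84 entries (97.6%, 91.7 to 99.3), and 7 of 89 knockout entries were absent from wild type (7.87%, 3.86 to 15.4), both near the values over all genes. With each peak counted once these were 68 of 70 and 6 of 74. H19 had 2 peaks in each list, Igf2 3, Ins2 2, Cdkn1c 3, Phlda2 2, Peg3 3, Zim1 3, Mest 3, Peg10 1, Sgce 2, Meg3 6, Dlk1 2, Snrpn 4, Plagl1 3 and Nespas 3, and Kcnq1ot1 and Ndn had 0 in each. The 2 missing peaks lay at Grb10, a growth factor receptor adaptor gene that went from 6 to 5, and at Gnas, which kept 5 of 6 and gained 1. Peaks were added at Kcnq1 (9 to 10), Igf2r (4 to 5), its antisense partner Airn (9 to 11, 1 of them the same peak as at Igf2r), Rtl1 (6 to 7) and Ube3a (2 to 3). In the X-inactivation centre all 40 entries were kept, or 27 of 27 with each peak counted once. A count of 0 missing allows a share of up to 7.50% of the 40 entries, and more of the 27 peaks. With spans widened by 50 kb, 71 of 73 entries were kept. Xist had 8 peaks in each list, Tsix 10, Ftx 6, Rlim 5, Cnbp2 4, and Jpx, Nap1l2 and Zdhhc15 1 each, while Cdx4 had 0. Chic1 was the exception, going from 4 to 5 through a peak that covered its whole promoter window.

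Among lineage genes, those of mesoderm and heart kept 43 of 43 (116 of 120 with spans widened by 50 kb) and had 9 of 52 knockout peaks absent from wild type (17.3%, 9.38 to 29.7). The latter interval included the value over all protein-coding genes, 9.76%. With spans widened by 50 kb the knockout-only share was 16 of 132 (12.1%). Gata4, a cardiac and endodermal factor on chromosome 14, went from 5 to 8, Hand2 from 2 to 4, and Mixl1, Pdgfra, Tbx5 and Mef2c gained 1 each. Endoderm and extraembryonic genes kept 38 of 38 and gained 2 of 40. The Hox genes, clustered regulators of body patterning, kept 98 of 98, or 43 of 43 with each peak counted once, where a count of 0 missing allows a share of up to 3.06% of the 98. Their 11 knockout-only entries of 109 lay at 10 of 39 genes (6 of 49 peaks counted once), with Hoxc6 going from 2 to 4. Of all 21887 protein-coding genes, 5680 had a knockout-only peak. Germline genes kept 33 of 36 (91.7%, 78.2 to 97.1), the lowest kept share of the 20 lists at 10 kb. Its interval included the value over all protein-coding genes, 96.8%, and with spans widened by 50 kb the share was 112 of 118 (94.9%). Sycp3, a synaptonemal complex gene, lost its only peak from the list, which lay inside the gene and was in 3 control lists, and Slc25a31, a germ cell ATP carrier, went from 0 to 1. In the neural list of 16 genes, Neurod1, a proneural factor, went from 1 to 0. Long neuronal genes kept 438 of 444 and gained 40 of 478 peaks (8.37%, 6.21 to 11.2), with Lrp1b going from 11 to 17 and Ptprd, on chromosome 4, from 21 to 26.

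The pluripotency network kept 138 of 140 peaks (98.6%, 94.9 to 99.6), and 13 of 151 knockout peaks were absent from wild type (8.61%, 5.10 to 14.2), close to the value over all genes. Esrrb, an orphan nuclear receptor of the network, went from 15 to 17 with 14 shared, so it both lost 1 and gained 3 peaks. Klf2, Klf5, Tfcp2l1, Dppa2, Dppa3, Nr5a2, Gdf3, Fgf4 and Nodal each gained 1 and kept all, and Trim71 kept 9 of 10 and gained 1. Genes of the formative and primed states gained 9 of 70 (12.9%, 6.91 to 22.7), an interval that included the 9.76% over all genes. Among them, Cdh2, the N-cadherin gene, went from 5 to 8 and Otx2 from 0 to 2. Dnmt3b, a de novo DNA methyltransferase gene, kept 9 of 10.

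Among signalling pathways, knockout-only shares were 14.7% for BMP and Nodal (20 of 136, 9.73 to 21.6), 14.1% for Wnt (20 of 142, 9.31 to 20.8), 13.3% for FGF and MAPK (15 of 113, 8.21 to 20.8) and 5.95% for LIF and STAT3 (5 of 84, 2.57 to 13.2). All these intervals included the value over all protein-coding genes, 9.76%. With spans widened by 50 kb the shares were 12.6%, 10.7%, 10.1% and 8.12%, so the genes named below are examples only. In the BMP and Nodal list, the ligand gene Bmp4 went from 2 to 4, while the receptor gene Bmpr1a, on chromosome 14, fell in number from 13 to 10 with none added. The effector gene Smad1 went from 4 to 7, and the activin receptor gene Acvr1b from 6 to 9, a peak lying over its promoter. In the Wnt list, Tcf7, a transcription factor of the pathway, went from 3 to 7, Gsk3b, the kinase that the culture medium inhibits, from 11 to 15, and Porcn, a Wnt acyltransferase gene, from 0 to 1. In the FGF list, the receptor gene Fgfr1 went from 8 to 11. In the LIF list, Il6st, the gp130 receptor gene, kept 3 of 4, and the missing peak covered its whole promoter window.

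Cell cycle and p53 genes had a low kept share, 83 of 90 (92.2%, 84.8 to 96.2), with 7 missing peaks at 6 of 20 genes. Over all 21887 protein-coding genes, 2221 had a wild-type-only peak within 10 kb. Ccne1, the cyclin E1 gene, kept 3 of 5, and Cdkn1a, E2f1, Cdk4, Rbl1 and Mdm2 missed 1 each. Inside the gene spans alone, 54 of 56 were kept (96.4%), so 5 of the 7 lay in the flanks. Cdkn1b, the p27 gene, went from 0 to 1 through a peak at its promoter that held SMARCA5. Antigen presentation genes kept 41 of 44, the 3 missing entries being the same peak near Tap1, Tap2 and Psmb8. None of their 41 knockout entries, 37 peaks counted once, was absent from wild type, which allows a share of up to 7.32% of the 41. The clustered protocadherins, neuronal adhesion genes whose promoters are chosen through CTCF loops, kept 77 of 78 peaks counted once and gained 4 of 81 (4.94%).

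**Figure D5:**
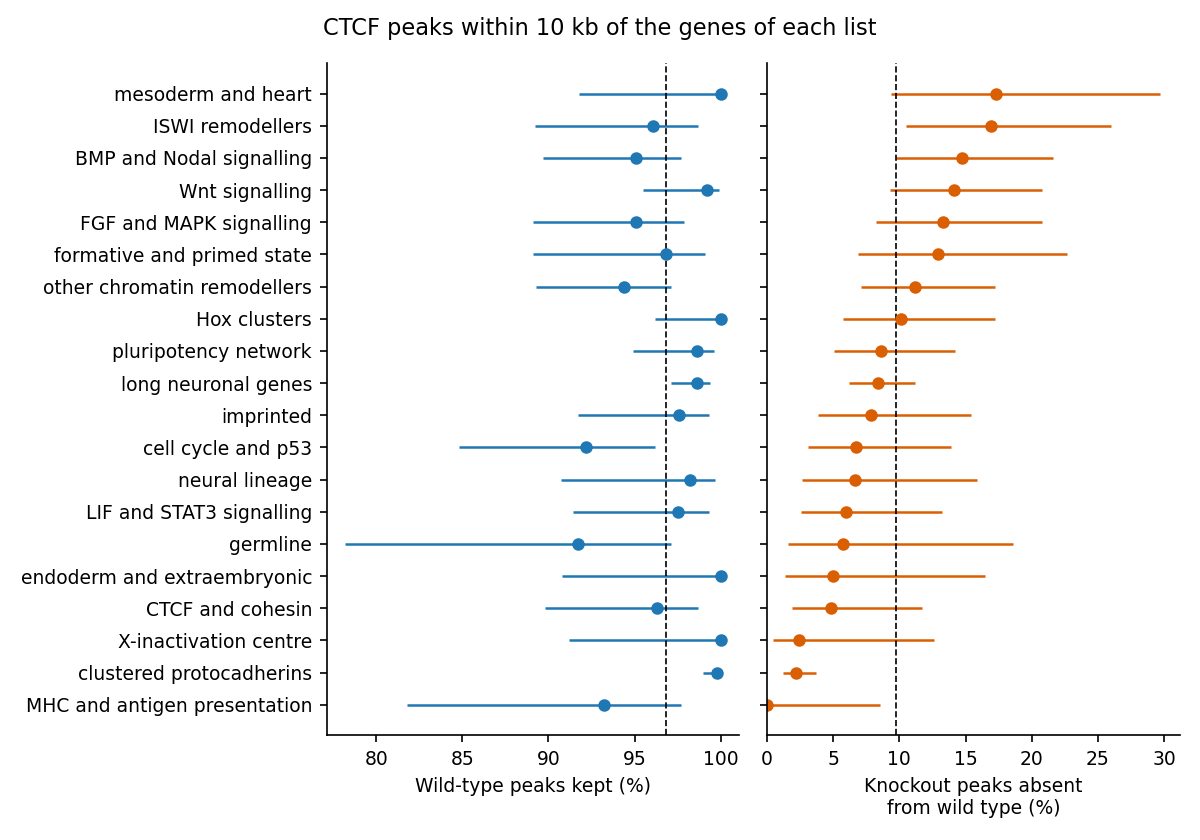
Wild-type peaks kept (left, %, axis not from 0) and knockout peaks absent from wild type (right, %) within 10 kb of the genes of each of the 20 lists (rows), with Wilson 95% intervals and the value over all protein-coding genes as dashed lines (96.8% and 9.76%). A peak is counted once per gene, so peaks shared by overlapping genes recur. Mesoderm and heart (17.3%) and ISWI remodeller genes (16.9%) are highest on the right, and most intervals cross the dashed lines.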

How the data were processed

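CTCF and SMARCA5 ChIP-seq peaks of mouse cells were used as deposited, 13 of 16 lists. The day 0 Ctcf shRNA list and both Thy1+ lists, whose day 3 labels conflict, were not used here. The build was mm10 (GRCm38) and the tools MACS2, HOMER, Bowtie2, bedtools, deepTools, FastQC, Picard, SAMtools and Trim Galore, according to the submitters' processing notes. Their versions, thresholds, pooling of samples and placing of positions are not stated there. The authors' deposited score is 0 for every peak, so no peak could be ranked or filtered by strength.

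Sites were shared at 1 bp of overlap. Gene spans were those of RefSeq on GRCm38.p6 (21887 protein-coding genes, spans widened by 10 kb) and start sites and promoters from RefSeq windows of that build, 32851 in number, with chromosome 18 not used. All 435 entries of the 20 gene lists were matched, Nespas as Gnasas1. With 1 sample a group, no test was made. The motif could be searched in promoters alone.

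The rule for named genes took, per list, members with wild-type peaks and none kept or with knockout peaks only; over all protein-coding genes, the 10 with the most peaks of each kind, the 10 with most wild-type peaks and none kept, and the 10 with most knockout peaks and no wild-type peak; genes at the 5 longest runs of each class; and Smarca5, Ctcf and members of the CTCF and cohesin, ISWI, imprinted and X-inactivation lists. Other named genes were chosen after their values were seen. A few genes that the rule names are not reported here. Members and lists were chosen with earlier results of these data known. The overlap code was tested on simulated lists. The GC range, the distance of the core from peak centres, the split by SMARCA5, the response to Ctcf shRNA, the 10 Mb bins and the chromosome stretches were added after the data were seen. Software was matplotlib 3.10.9, SciPy 1.17.1, NumPy 2.4.6 and Python 3.11.15.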

Additional observations from a re-analysis of the deposited data

Results flagged for a closer look

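The CTCF list changed in length in opposite directions in the 2 settings without full Smarca5. It was 7.69% longer in Smarca5 knockout ESCs than in wild type, and on day 10 of reprogramming with OSKM and Ctcf it changed by -1.18% with an shRNA against Smarca5. Each value rests on 1 sample with reduced Smarca5, against 1 wild-type ESC sample and 2 day 10 samples without the shRNA. The difference was not tested.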

How the results depend on the processing

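A reciprocal overlap of 50%, identical positions and merging could not change the kept share (97.1%) or the knockout-only share (9.81%). All shared peaks had identical positions, and neighbours within a list started at least 418 bp apart. On autosomes alone the kept and knockout-only shares were 97.1% and 9.95%, inside their intervals. With a peak within 1000 bp counted as shared they were 97.5% and 8.93%, and without chromosomes 1, 4, 8 and 14 they were 97.0% and 9.27%. Among peaks in at least 1 of the day 10 OSKM, SSEA1- Thy1-, SSEA1+ and day 12 control lists they were 97.8% and 1.15%, and among peaks in the day 10 OSKM list 99.5% and 0.892%. The SMARCA5 share of shared peaks was 49.9% on autosomes. The share in other CTCF lists of shared and knockout-only peaks was 73.6% and 7.11% at a reciprocal overlap of 50%. In the day 0 and day 10 lists alone it was 52.9% of shared, 9.85% of wild-type-only and 4.73% of knockout-only peaks. At kept day 10 sites the ESC kept share was 99.4% at 50% overlap. Shared, wild-type-only and knockout-only peaks lay in 55.4%, 55.7% and 61.2% of cases inside a gene span, in 61.4%, 63.4% and 65.7% within 2.5 kb and in 85.3%, 91.0% and 85.1% within 50 kb. With gene spans widened by 50 kb in place of 10 kb, the knockout-only share was 11.1% for ISWI remodeller, 9.04% for CTCF and cohesin, 8.49% for endoderm and extraembryonic, 9.68% for germline, 5.33% for X-inactivation centre, 5.21% for protocadherin and 3.64% for antigen presentation genes, each over 1.5 times from its value at 10 kb or up from 0. Inside gene spans it was 15.6% for the Hox genes, and within 2.5 kb 2.94% for CTCF and cohesin. The core was in the central 200 bp of 19.7% of shared and 7.35% of knockout-only peaks at promoters. It was in 34.0% and 15.9% of windows wholly inside such peaks, and with 1 mismatch in 87.1%, 86.7% and 83.6% of the windows of the 3 classes. For windows other than 10 kb these shifts follow from the wider or narrower span, and for the mismatch from the looser pattern; the cause of the other shifts was not tested. Chromosome exclusions, the day 10 list alone, the day 0 and day 10 pair and windows wholly inside peaks were chosen after the data were seen. No paired analysis was possible because each group had 1 ChIP sample, and leaving out a replicate was not possible for the same reason. Depth is unknown and peaks carry no strength, so a partial loss or gain of binding was not detectable.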
